A study of Homo sapiens with 6 samples.

Results

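The genes of 9 transcription factors of squamous epithelium were examined, TP63, SOX2, KLF4, KLF5, TFAP2A, TFAP2C, GRHL2, GRHL3 and PITX1, out of 24135 annotated protein-coding and lncRNA genes. A deposited enriched region was counted for a gene when it overlapped the gene body or the 10 kb upstream of it in hg19. The 9 genes were chosen by name, with earlier results of these data known, and all 9 had at least 1 region of each mark in some library. The cells were HSC3, an established line of oral squamous cell carcinoma, transfected with an siRNA against the lncRNA DLEU1 (siDLEU1) or with a control siRNA (siCONT) and crosslinked after 72 h. H3K27ac, H3K4me3 and input DNA were sequenced once for each siRNA, so there are 6 libraries, of which 4 have a list of regions. All groups share the line and the transfection, and a single siRNA against DLEU1 was used, so an effect of that siRNA on other transcripts cannot be told apart from the loss of DLEU1. In bulk ChIP-seq, fewer cells with a mark and less mark per cell cannot be told apart. With 1 library for each siRNA and mark, no difference below has a replicate check and none has a p-value.

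p63, the product of TP63, is the master regulator of stratified epithelium, and the gene has an upstream promoter for the TA isoforms and an internal promoter for the ΔN isoforms, of which ΔNp63 prevails in basal keratinocytes and squamous carcinomas. SOX2 acts together with p63 in squamous carcinomas, KLF5 and KLF4 are linked with basal proliferation and with differentiation, and the AP-2 factors TFAP2A and TFAP2C and the grainyhead factors GRHL2 and GRHL3 control keratinocyte and barrier genes. PITX1 is a homeodomain factor of oral epithelium. H3K4me3 marks promoters, and H3K27ac marks active promoters and enhancers.

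The H3K27ac lists hold 19705 regions in siCONT and 17672 in siDLEU1, and the H3K4me3 lists hold 58582 and 56943. They cover 17.3 and 12.4 Mb for H3K27ac and 45.2 and 41.4 Mb for H3K4me3. The fragments stacked at each summit and the local background from the input were recovered from the fold enrichment and p-value. Assuming a genome of 2.7 Gb, the ChIP reads behind the H3K27ac lists then come to 21.5 M in siCONT and 29.4 M in siDLEU1 (M, mega). Those behind the H3K4me3 lists come to 28.4 M and 22.3 M. Covered lengths and raw fragment counts below were not scaled to this depth. All 7 epithelial marker genes, among them KRT5 and KRT14, had regions of both marks within 1 kb of a start site in every list. Of 4 fibroblast genes only COL1A1 had one, and none of 3 leukocyte genes nor the endothelial gene CDH5 did. The start site of DLEU1 itself kept both marks (H3K27ac percentile 86.3 and 87.2), which does not check the knockdown, since the siRNA acts on the transcript.

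Strength is given as the percentile of a region's fold enrichment within its own list, where 100 is the strongest region, because fold enrichment is not comparable between lists. 5 sequences are shown first, each 200 bases around a summit on the forward strand of GRCh37, because the results on TP63, PITX1, TFAP2C, SOX2 and KLF4 turn on these positions. Capitals mark a match to a short motif (AACCNGTT for GRHL, GCCNNNGGC for TFAP2, GGGNGNGG for KLF, ACAANGG for SOX, TAATCC for PITX, on either strand), and lower case throughout means that none of these letters were found.
TP63 ΔN promoter, H3K27ac summit, chr3:189508631-189508830: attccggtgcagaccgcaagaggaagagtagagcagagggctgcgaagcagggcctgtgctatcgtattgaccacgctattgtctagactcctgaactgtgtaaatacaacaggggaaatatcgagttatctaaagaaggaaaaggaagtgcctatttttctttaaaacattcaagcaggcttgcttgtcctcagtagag
PITX1 intron 1, H3K27ac summit, chr5:134369076-134369275: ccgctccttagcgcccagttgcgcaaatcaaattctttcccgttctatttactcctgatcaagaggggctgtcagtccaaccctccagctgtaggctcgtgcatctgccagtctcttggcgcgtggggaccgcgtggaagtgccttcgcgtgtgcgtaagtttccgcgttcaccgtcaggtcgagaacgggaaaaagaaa
TFAP2C upstream, H3K27ac summit of siCONT alone, chr20:55203461-55203660: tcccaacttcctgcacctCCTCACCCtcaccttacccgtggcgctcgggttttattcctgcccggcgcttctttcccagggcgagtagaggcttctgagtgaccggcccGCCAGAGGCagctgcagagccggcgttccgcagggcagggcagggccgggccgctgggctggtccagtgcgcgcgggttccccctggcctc
SOX2 upstream, H3K4me3 summit of siDLEU1 alone, chr3:181427619-181427818: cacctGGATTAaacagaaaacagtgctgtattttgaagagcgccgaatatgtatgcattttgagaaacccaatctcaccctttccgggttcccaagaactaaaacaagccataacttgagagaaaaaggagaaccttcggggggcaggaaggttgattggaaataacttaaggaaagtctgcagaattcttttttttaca
KLF4 intron 2, H3K27ac summit, chr9:110251018-110251217: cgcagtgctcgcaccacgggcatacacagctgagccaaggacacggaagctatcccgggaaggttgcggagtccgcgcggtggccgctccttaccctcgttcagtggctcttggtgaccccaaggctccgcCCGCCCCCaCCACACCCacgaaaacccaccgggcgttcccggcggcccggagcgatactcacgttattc

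As a set, the 9 genes carried less H3K27ac length after DLEU1 knockdown and nearly the same H3K4me3 length, and in neither did they stand apart from other genes. The H3K27ac regions covered 28401 bp of the 9 domains in siCONT and 22650 bp in siDLEU1, a ratio of 0.798. H3K27ac length was smaller in siDLEU1 at 7 genes and larger at TFAP2A and GRHL3. The median ratio was 0.781 over the 9 genes and 0.759 over the 14690 genes with a region in siCONT. Calling a covered length at least 1.5-fold smaller as lower, 2 of 9 genes were lower, PITX1 and TFAP2C, against 32.6% of all genes with a region in either list. None of the 9 was at least 1.5-fold higher, against 0.624% of all such genes.

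For H3K4me3 the domains held 104753 bp in siCONT and 96180 bp in siDLEU1, a ratio of 0.918, and the median over the 8 genes with a region in siCONT was also 0.918, against 0.893 over 15822 genes. Only KLF4 was at least 1.5-fold lower (1 of 9, against 16.7% of all genes) and only SOX2 was higher (1 of 9, against 10.5%). Both genes had at most 2 H3K4me3 regions in a library.

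**Figure D1:**
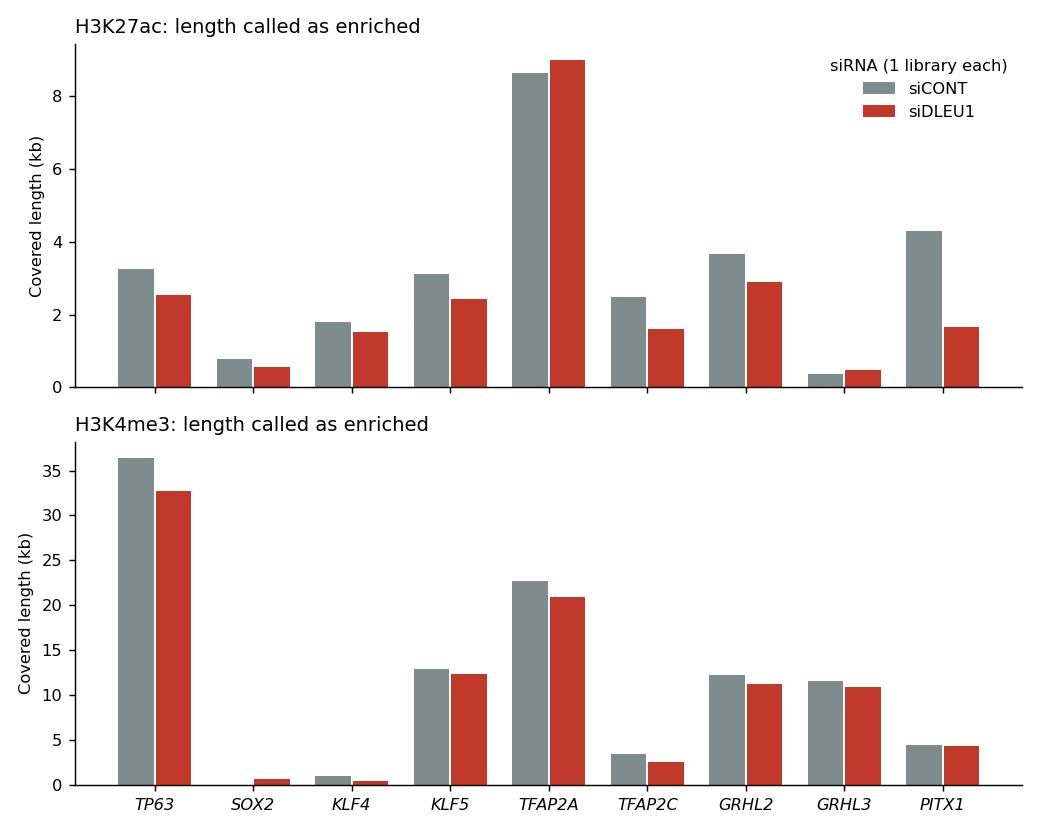
Length in kb called as enriched within the gene body and 10 kb upstream of each gene (bars from 0, grey siCONT, red siDLEU1, 1 library each), for H3K27ac above and H3K4me3 below. PITX1 shows the largest loss of H3K27ac length, from 4296 to 1650 bp, while its H3K4me3 length stays near 4.4 kb in both libraries.

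Most regions were found again with the other siRNA. Of 22 H3K27ac regions of siCONT, 16 were overlapped by a siDLEU1 region (72.7%, Wilson 95% interval 51.8 to 86.8%), so 6 were not, against 22.2% not overlapped in the whole list. Of 23 regions of siDLEU1, 20 were overlapped in siCONT (87.0%, Wilson 95% interval 67.9 to 95.5%). The interval lay below the 98.8% of the whole list. The other 3 were not overlapped, against 1.24% of the whole list. These 3 lay below percentile 15 in their list, 1 each in KLF5, TFAP2A and GRHL3. The interval treats neighbouring regions as independent, and 8 of the 23 lay in TFAP2A. It therefore cannot decide whether the genes differ from the list. Among siDLEU1 regions with −log10 q of at least 10, 10 of 10 were overlapped. Among siDLEU1 regions up to percentile 25, 6 of 9 were overlapped, against 95.5% of such regions in the list. For H3K4me3, 22 of 95 siCONT regions were not overlapped, against 23.6% of the list, and 19 of 95 siDLEU1 regions, against 21.2%. All 3 H3K27ac and all 20 H3K4me3 regions of the genes above percentile 75 of the siCONT lists were overlapped, as were 100% and 99.6% of such regions in the whole lists. The intervals cover counting error only, and PCR duplicates are not told apart.

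The position of the marks differed. At the 9 genes 18 of 22 H3K27ac regions in siCONT and 20 of 23 in siDLEU1 lay within 1 kb of a start site of the same gene. By contrast, 74 of 95 and 73 of 95 H3K4me3 regions lay farther away. Of the 74 in siCONT, TP63 held 33, GRHL2 14 and GRHL3 15, in domains of 275888, 187288 and 174925 bp. The share by position was not taken over the whole lists, so a trait of long genes cannot be told apart. H3K27ac regions were overlapped by H3K4me3 in 19 of 22 and 22 of 23 cases (86.4% and 95.7%, against 88.6% and 93.7% of the lists). In the other direction only 15 of 95 and 14 of 95 H3K4me3 regions held H3K27ac (15.8% and 14.7%, against 33.1% and 27.3% of the lists). TP63 alone held 35 and 37 of these H3K4me3 regions.

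**Figure D2:**
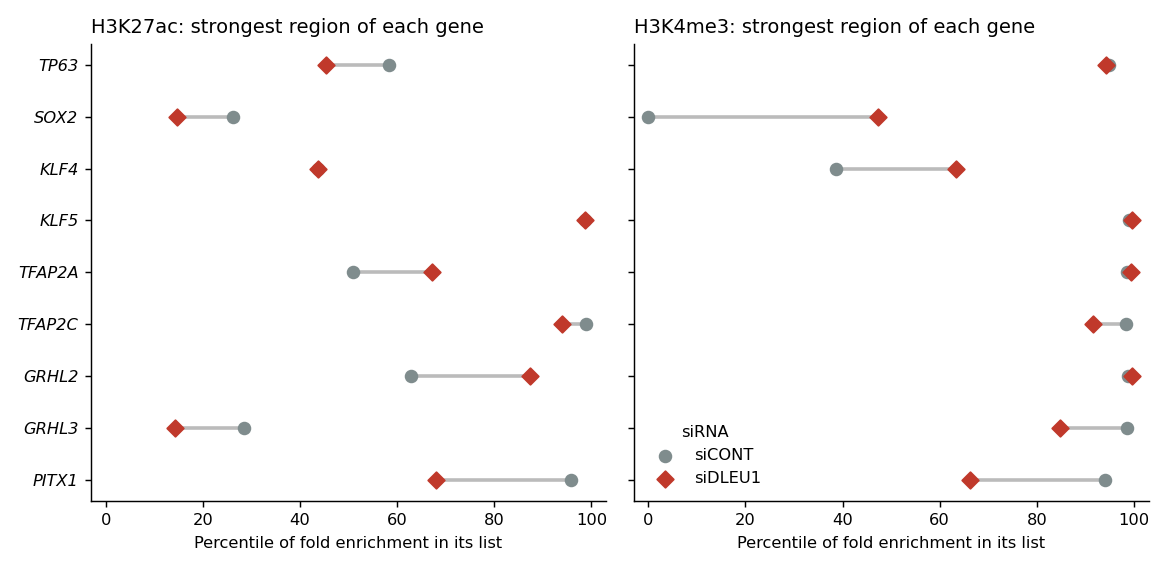
Percentile of the strongest region of each gene within its own list (100 is the strongest region of a list, 0 means no region), joined between siCONT (grey circles) and siDLEU1 (red diamonds), for H3K27ac on the left and H3K4me3 on the right. KLF5 sits at 98.6 in both H3K27ac lists, PITX1 moves down in both marks, and GRHL2 moves up from 62.8 to 87.4 for H3K27ac.

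In siCONT the order of the strongest H3K27ac regions was TFAP2C at percentile 98.8, KLF5 at 98.6, PITX1 at 95.9, GRHL2 at 62.8, TP63 at 58.4, TFAP2A at 50.9, KLF4 at 43.8, GRHL3 at 28.4 and SOX2 at 26.3. KLF5, TFAP2C and GRHL2 stood highest in siDLEU1, at 98.6, 93.9 and 87.4, and GRHL3 and SOX2 again lowest, at 14.3 and 14.7. The median change over the 9 genes was -4.91 percentile points, against -4.68 over all genes. Without replicates, neighbours in this order cannot be told apart. Fold enrichment divides the stacked fragments by a local background of about 0.5 to a few input fragments, so the rank can move with a single input fragment, and fragment counts are given beside it.

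The fragments at the summit, per 10 M ChIP reads, gave a second view. Over 15334 H3K27ac regions called with both siRNAs the median ratio of siDLEU1 to siCONT was 0.584, and over 44741 H3K4me3 regions it was 1.13. A shift of a whole list and a different yield of the immunoprecipitation cannot be told apart, so each gene was read against the median of its list. At the strongest siCONT region of each gene, the H3K27ac ratio lay between 0.514 at PITX1 and 0.939 at SOX2. The exact 95% counting interval held the median of the list for 7 of the 9 genes. The exceptions were SOX2 (0.939, interval 0.590 to 1.5) and GRHL3 (0.928, 0.590 to 1.47), the weakest regions of the set. Both lie between percentiles 25 and 50, where the median ratio of the list was 0.604, inside both intervals. For H3K4me3, 7 of 8 intervals held the median of the list, and TFAP2C lay below it (0.681, interval 0.539 to 0.856).

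**Figure D3:**
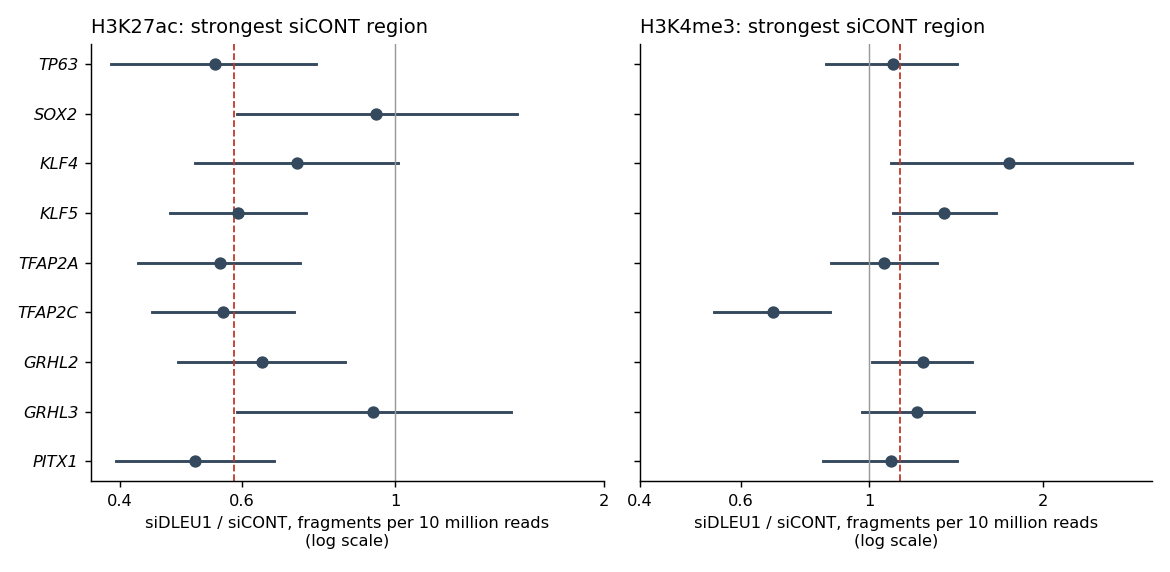
Ratio of siDLEU1 to siCONT in summit fragments per 10 M reads (log axis) at the strongest siCONT region of each gene, with its exact 95% counting interval, H3K27ac on the left and H3K4me3 on the right; the dashed line is the median of all regions called with both siRNAs (0.584 and 1.13), the grey line is 1, and SOX2 has no H3K4me3 region in siCONT. TFAP2C is the gene whose H3K4me3 interval lies below the dashed line.

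TP63 (chr3:189349178-189615065, plus strand) carried both marks at the ΔN promoter and neither mark at the TA promoter in any of the 4 lists. The ΔN start sites lie at 189507448 to 189507590, in intron 3 of the TA transcript. There H3K27ac formed a single region of 3252 bp in siCONT, at percentile 58.4 with 84 fragments (39.1 per 10 M reads). In siDLEU1 it was split into regions of 1420 and 1120 bp, the stronger at percentile 45.3 with 63 fragments (21.4 per 10 M), a fragment ratio of 0.548 (0.389 to 0.769) that holds the median of the list. H3K4me3 at the ΔN promoter was 3686 bp wide in siCONT and 4167 bp in siDLEU1, with 132 and 88 fragments (46.4 and 39.4 per 10 M) and percentiles of 92.7 and 78.7. Its fragment ratio of 0.850 (0.641 to 1.12) lay below the median of the list, 1.13, and 20.4% of regions had one as low. Between percentiles 75 and 100, where this region lies, the median ratio of the list was 1.07, inside the interval. The adjoining H3K4me3 region, starting at 189506723 just upstream of the ΔN start sites, had 79 and 35 fragments. Its ratio was 0.565 (0.368 to 0.851), and 2.83% of regions had one as low. Low ratios were not limited to the ΔN start sites. TP63 regions farther away, starting at 189553821, 189522828 and 189523919, had ratios of 0.592, 0.606 and 0.637. Over the TP63 H3K4me3 regions called with both siRNAs the ratios ran from 0.565 to 1.42.

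Beyond the ΔN promoter, TP63 held a long run of H3K4me3 without H3K27ac. Intron 4 of the TA transcript contained 18 H3K4me3 regions in siCONT, with summits 31.7 to 73.7 kb downstream of the nearest ΔN start site and 22758 bp of summed width, and 20 regions with 19349 bp in siDLEU1. None of them was overlapped by H3K27ac, and 4 in each library were above percentile 75. The region with the highest percentile, 94.8 in siCONT and 94.2 in siDLEU1, ranked above the ΔN promoter in both lists, with 128 and 110 fragments (45.0 and 49.3 per 10 M). Other regions of the run had 151 and 149 fragments in siCONT and 120 and 117 in siDLEU1, against the 132 and 88 of the ΔN promoter. No TP63 start site is annotated there. Among H3K4me3 summit windows of TP63 away from its start sites, at least 50% of the bases lay in high-copy words (of 16 bases, at least 100 times on chromosome 1) in 2 of 33 siCONT and 2 of 35 siDLEU1 windows, against 11.0% and 12.2% of the lists. The siCONT window of the region with the highest percentile was one of them, with 65.0% of its bases in such words.

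**Figure D4:**
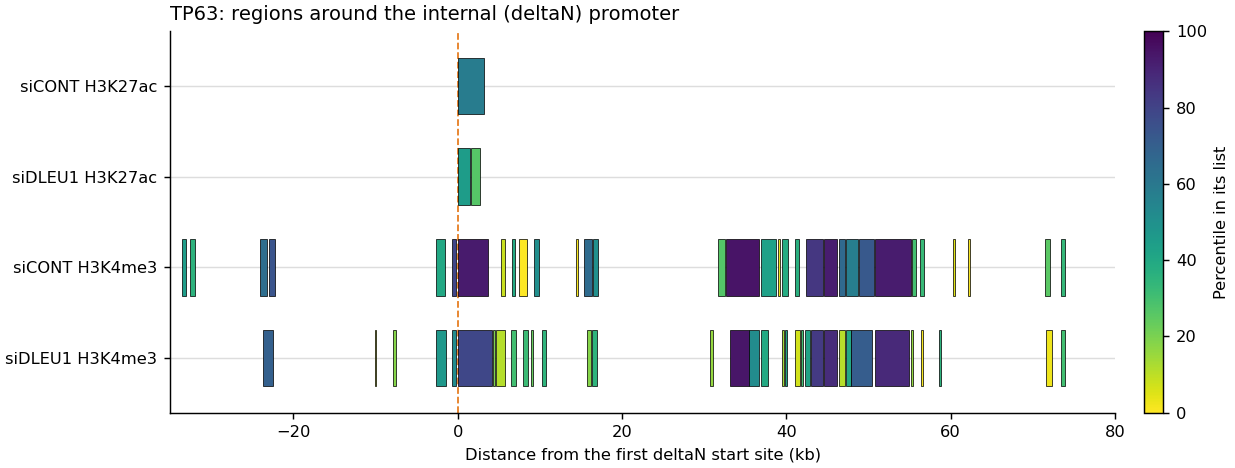
Regions of the 4 lists around the internal promoter of TP63, as distance in kb from the first ΔN start site (dashed line), boxes drawn to their width and coloured by percentile in their own list. H3K27ac appears at the ΔN promoter only, while H3K4me3 recurs on both sides of it with both siRNAs. The H3K4me3 summits in intron 4 lie 31.7 to 73.7 kb downstream of the nearest ΔN start site in siCONT and 30.7 to 73.4 kb in siDLEU1.

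SOX2 (chr3:181429713-181432224, plus strand, 1 exon) had little of either mark. In siCONT it had H3K27ac regions of 489 and 287 bp inside the exon, with 35 fragments at the stronger, and no H3K4me3. In siDLEU1 it had an H3K27ac region of 553 bp with 45 fragments (16.3 against 15.3 per 10 M reads) and H3K4me3 regions of 434 and 226 bp. The wider H3K4me3 region, at percentile 47.2 with 34 fragments, lies at -1995 bp from the start of SOX2, beside a start site of SOX2-OT, a lncRNA whose gene spans SOX2. At a threshold of 10 on −log10 q, no region of either mark remained at SOX2 with either siRNA. With equal numbers of regions the H3K27ac length ratio was 1.13 in place of 0.713.

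KLF4 and KLF5 encode zinc-finger factors. KLF5 (chr13:73629114-73651679, plus strand) had an H3K27ac region of 2458 bp over exon 1 in siCONT and 2079 bp in siDLEU1, at percentile 98.6 in both lists, with 175 and 142 fragments (81.5 and 48.3 per 10 M reads). Its H3K4me3 covered 12961 and 12388 bp, but in 14 regions with siCONT and in 5 with siDLEU1. Of the 14, 9 were overlapped in siDLEU1, where regions of 5828 and 4947 bp each spanned several of them. The rest, with summits in intron 3 and at percentile 24.8 or lower, had no siDLEU1 region. The strongest H3K4me3 summit of KLF5 had 188 and 199 fragments (66.1 and 89.2 per 10 M), a ratio of 1.35 (1.10 to 1.66).

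KLF4 (chr9:110247133-110252763, minus strand) kept both of its H3K27ac regions, with 74 and 73 fragments at the stronger (34.5 and 24.8 per 10 M) and percentile 43.8 in both lists. Its H3K4me3 was weak, and the readouts moved in opposite directions. The covered length fell from 1004 bp in 2 regions to 382 bp in 1, a ratio of 0.38, while the region in both lists went from percentile 38.6 to 63.4 and from 32 to 44 fragments (11.3 to 19.7 per 10 M, ratio 1.75, 1.09 to 2.85). At −log10 q of at least 10 the gene had H3K4me3 in siDLEU1 alone, so its 1.5-fold call turned from lower to higher.

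TFAP2A and TFAP2C, the AP-2 genes, parted in H3K27ac length. TFAP2A (chr6:10393419-10419892, minus strand) has 18 annotated start sites in 4 clusters and shares its promoters with the antisense genes TFAP2A-AS1 and TFAP2A-AS2, which ChIP cannot separate. It held 8 H3K27ac regions in each library, 8641 bp in siCONT and 8991 bp in siDLEU1. Its strongest region in siCONT, over the canonical start, lay at percentile 50.9, and in siDLEU1 the neighbouring region in intron 1 was strongest, at percentile 67.2. The local background there was 2.0 input fragments in siCONT and 0.563 in siDLEU1, and ranked by fragments the change of the gene was -4.95 points. The fragment ratio at the canonical promoter was 0.558 (0.425 to 0.729), and at the neighbouring region 0.475 (0.352 to 0.637). Weak regions starting at 10417458 and 10418930 had ratios of 1.57 (0.972 to 2.61) and 1.24 (0.722 to 2.17). Both intervals lay above the median of the list, 0.584. Their fragments were 26 and 23 in siCONT and 56 and 39 in siDLEU1. Between percentiles 0 and 25, where both lie, the median ratio was 0.746, inside the second interval only. The remaining ratios, 0.587 to 0.913, had intervals that held 0.584. At −log10 q of at least 10 the length ratio was 0.735, and the direction turned.

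The start-site clusters of TFAP2A differed among themselves. The canonical cluster had 61.0 and 34 H3K27ac fragments per 10 M reads, the first-exon cluster farthest upstream had 28.4 and 16.7, and the cluster within the gene body next to TFAP2A-AS2 had no H3K27ac region in siCONT and 1 of 451 bp (percentile 14.6) in siDLEU1. H3K4me3 at that last cluster lay at percentile 98.5 in siCONT and 99.4 in siDLEU1, with 177 and 191 fragments (62.2 and 85.6 per 10 M). In siCONT the region over the canonical and upstream clusters had the same percentile, with 197 fragments. Altogether H3K4me3 of TFAP2A covered 22653 bp in 6 regions and 20937 bp in 13.

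TFAP2C (chr20:55204362-55214339, plus strand) had less length in both marks, and fewer fragments of both at its promoter. Its H3K27ac covered 2486 bp in siCONT and 1612 bp in siDLEU1, a ratio of 0.648, and 29.6% of genes had a ratio as low. The promoter region of 1823 bp in siCONT was split into regions of 849 and 763 bp in siDLEU1. It stayed strong, at percentile 98.8 and 93.9 with 167 and 129 fragments (77.8 and 43.9 per 10 M). The H3K27ac fragment ratio of 0.564 (0.445 to 0.714) held the median of the list, 0.584, and 41.6% of regions had one as low. A second H3K27ac region of 663 bp had its summit at -802 bp from the start site, at percentile 30 with 53 fragments. It was called in siCONT alone, so its 663 bp are part of the fall in covered length. Its sequence, shown above, holds a TFAP2 and a KLF match. H3K4me3 at the promoter had 219 and 117 fragments (77.0 and 52.4 per 10 M), and 7.57% of regions called with both siRNAs had a ratio as low as its 0.681. The H3K4me3 region with its siCONT summit at -838 bp also held fewer fragments, 72 in siCONT and 36 in siDLEU1 (ratio 0.637, 0.415 to 0.963). Farther upstream, at -3032 bp, another region had 31 and 33 fragments (10.9 and 14.8 per 10 M, ratio 1.36, 0.805 to 2.29). At −log10 q of at least 10 its H3K4me3 was at least 1.5-fold lower too, with a ratio of 0.580.

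GRHL2 and GRHL3 encode grainyhead factors and differed most in H3K27ac. GRHL2 (chr8:102504667-102681954, plus strand) had a single H3K27ac region of 3678 bp over its promoter in siCONT and regions of 1792 and 1103 bp in siDLEU1. Its strongest region lay at percentile 62.8 and 87.4, with 114 and 100 fragments (53.1 and 34 per 10 M). The local background was 1.12 and 0.510 input fragments, and by fragments alone the change was 4.38 points. At −log10 q of at least 10 the H3K27ac length ratio was 0.487, in place of 0.787. H3K4me3 at the promoter stood at percentile 98.7 and 99.7, with 204 and 198 fragments (71.7 and 88.7 per 10 M). Intron 1 held a further H3K4me3 region 12052 bp from the start, at percentile 89.8 in siCONT and 75.7 in siDLEU1, without H3K27ac.

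GRHL3 (chr1:24526048-24690972, plus strand) had strong H3K4me3 and little H3K27ac. Its canonical start sites had no H3K27ac in any list and H3K4me3 at percentile 26.6 in siCONT and 53.8 in siDLEU1. That H3K4me3 region had 56 and 48 fragments (19.7 and 21.5 per 10 M, ratio 1.09, 0.727 to 1.64). The local background was 2.0 and 0.930 input fragments. Both marks were centred instead about 2.8 kb downstream, in intron 1, upstream of a second start site of GRHL3 at 24649530 and at GRHL3-AS1. H3K27ac there was 366 bp wide with 37 fragments in siCONT (17.2 per 10 M), and 309 bp with 47 fragments in siDLEU1 (16 per 10 M), where another region of 176 bp was called beside it. The ratio of 1.33 in length was the largest of the set, on 366 and 485 bp in all, and 99.4% of genes had a ratio as low. The fragment ratio was 0.928, and 3.12% of H3K27ac regions called with both siRNAs had one as high. At −log10 q of at least 10 the gene had H3K27ac in siCONT alone, so the direction turned. H3K4me3 went from percentile 98.5 to 84.8, while the fragments were 168 and 160 (59.1 and 71.7 per 10 M) and the local background 0.532 and 2.0.

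PITX1 (chr5:134363424-134370503, minus strand) showed the largest loss of H3K27ac length. In siCONT a region of 3724 bp ran from the canonical start site into the gene body, with its summit in intron 1, with 145 fragments (67.5 per 10 M reads) and at percentile 95.9. In siDLEU1 regions of 1272 and 378 bp remained, the stronger at percentile 68.0 with 102 fragments (34.7 per 10 M). The covered length went from 4296 to 1650 bp, a ratio of 0.384, and 10.2% of genes had a ratio as low. It ranged from 0.342 to 0.559 over the alternative lists and domains. The summit itself did not stand apart, since its fragment ratio of 0.514 (0.395 to 0.667) held the median of the list and 21.6% of regions had one as low. By fragments, the percentile changed by -8.74 points in place of -27.9.

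H3K4me3 of PITX1 kept its length, 4479 bp in siCONT and 4341 bp in siDLEU1. Its highest percentile was 94.0 in siCONT and 66.3 in siDLEU1. The siDLEU1 region over the canonical start, however, had 105 fragments (47.1 per 10 M, against 43.3 in siCONT) on a local background of 4.0 input fragments, against 0.532 in siCONT, which placed it at percentile 41.3. By fragments the change was -0.899 points. A weak H3K27ac region of 374 bp, at -5442 bp near a start site of the lncRNA EPIST, was called in siCONT alone.

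**Figure D5:**
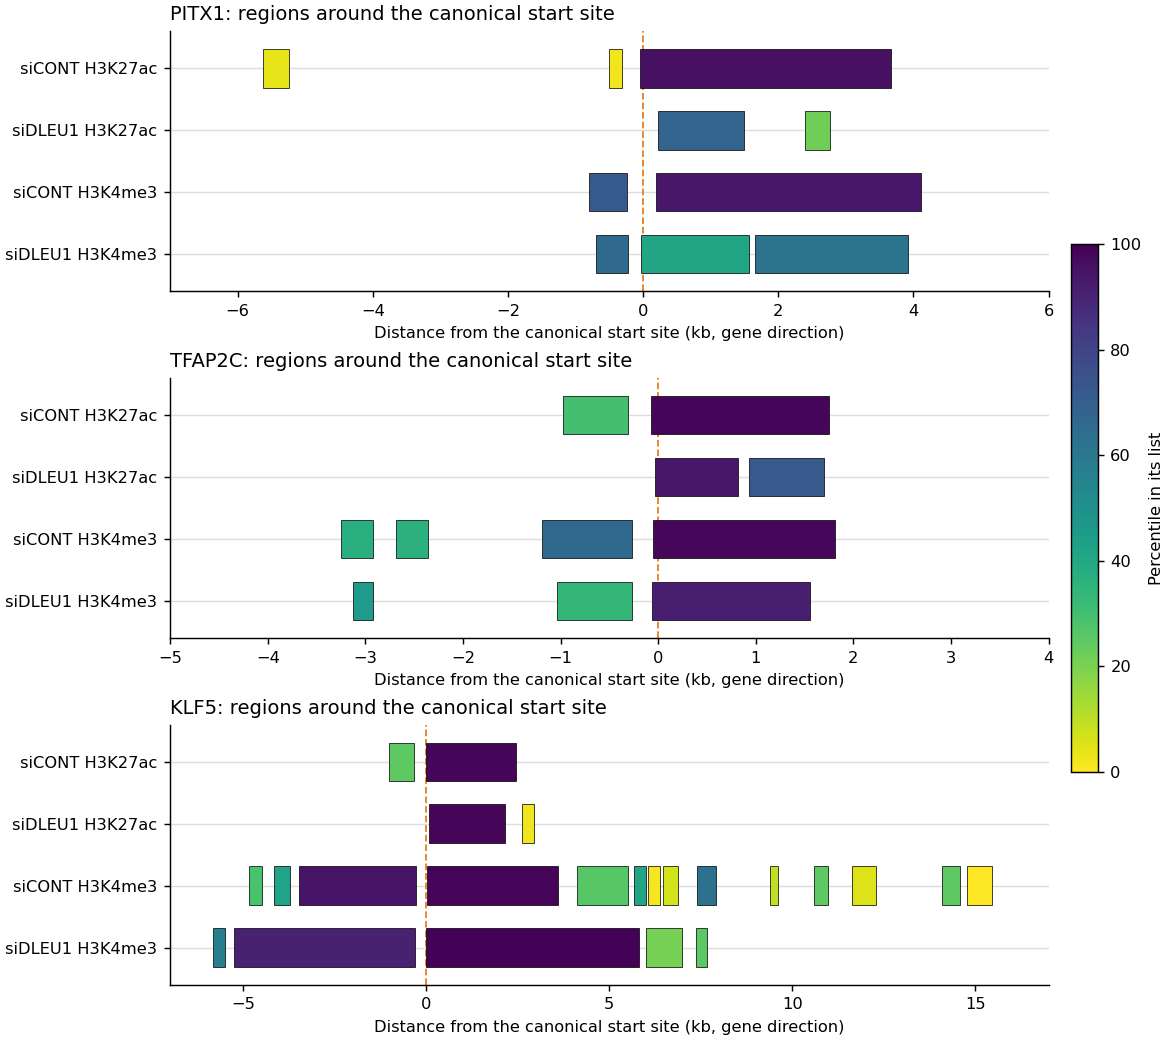
Regions of the 4 lists around the canonical start sites of PITX1, TFAP2C and KLF5, as distance in kb in the direction of the gene (dashed line, start site), coloured by percentile in their own list. PITX1 loses most of the 3724-bp H3K27ac region, TFAP2C lacks the upstream H3K27ac region in siDLEU1, and KLF5 shows a 5828-bp H3K4me3 region in siDLEU1 in place of several.

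Regions above percentile 25 called with 1 siRNA are named here, with the share of such regions in the whole list. For H3K27ac the upstream region of TFAP2C was the only one, 1 of 14 such regions in siCONT, against 6.06% of the list, and there were 0 of 14 in siDLEU1, against 0.151%. For H3K4me3 there were 8 of 69 in siCONT, against 13.4%, namely those starting at 189473844 (percentile 44.7), 189474814 (35.8), 189516750 (50.7) and 189539126 (26.7) in TP63, at 55201680 (36.2) upstream of TFAP2C, at 102514409 (25.9) and 102647526 (33.8) in GRHL2 and at 24517827 (32.5) upstream of GRHL3. In siDLEU1 there were 6 of 63, against 13.5%, starting at 189517750 (35.1), 189549250 (30.2) and 189566011 (35.6) in TP63, at 102551531 (60.0) in GRHL2, at 73627324 (57.5) upstream of KLF5 and at 181427571 (47.2) upstream of SOX2. None of these H3K4me3 regions reached percentile 75, and TP63 held the most in both lists.

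The summit sequences of the genes were set beside those of the whole lists. Of 22 siCONT H3K27ac windows of 200 bases, 9 held a KLF match (40.9%, against 48.7% of the list), 6 a TFAP2 match (27.3% against 21.5%), 2 a SOX match (9.09% against 6.65%), 1 a PITX match (4.55% against 4.39%) and none a GRHL match (against 0.690%). In siDLEU1, 14 of 23 windows held a KLF match (60.9%, against 49.9%). A match is a word in a window, not a bound site. The median GC content was 65.2% at the H3K27ac summits of the genes (65.0% in the list) and 44% at their H3K4me3 summits (53% in the list).

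Genes related to the 9 are given beside the 32.6% of all genes that were at least 1.5-fold lower in H3K27ac, the 0.624% that were higher and the median ratio of 0.759. Of 15 paralogs, 12 had H3K27ac, of which 4 were at least 1.5-fold lower and none higher, with a median ratio of 0.784. The largest falls were at TP73 (2957 to 1031 bp), which encodes the related factor p73, at PITX3 (2475 to 1418 bp) and at KLF10 (2889 to 2092 bp), and SOX15 had 1872 bp in siCONT and 1876 bp in siDLEU1. Of 15 other epithelial regulators, 13 had H3K27ac, of which 4 were lower and none higher, with a median of 0.80. Here the largest falls were at RUNX1 (7683 to 4619 bp), PRDM1 (3783 to 1953 bp) and FOXA1 (1451 to 265 bp), and the only rise was at OVOL1 (1127 to 1196 bp). Of 16 epithelial genes known as targets of these factors, 15 had H3K27ac, of which 2 were lower and none higher, with a median of 0.919. RAB25 (3107 to 2110 bp), TGM1 (962 to 396 bp) and the desmosomal cadherin DSG3 (537 to 0 bp) fell most, and KRT14 (2194 to 2475 bp) and PERP (2371 to 2384 bp) were the only genes with more length. For H3K4me3, 2 of 10 paralogs with a region, 3 of 15 regulators and 2 of 16 targets were lower, against 16.7% of all genes, and 1, 0 and 2 were higher, against 10.5%.

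The genes whose covered lengths over the 4 lists lay nearest to PITX1, by Euclidean distance on log2(bp + 100), were SMAD7 (distance 0.289, H3K27ac 3775 to 1915 bp), NRSN2-AS1 (0.295, 3862 to 1842 bp) and STIM2 (0.373, 3518 to 1816 bp). Nearest to GRHL3 were LINC00880 (0.623) and LINC00881 (0.624), both with 558 bp in siCONT and 388 bp in siDLEU1, and ZP3 (0.678, 325 to 278 bp).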

How the data were processed

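HSC3 cells were profiled by ChIP-seq on an Ion Proton instrument. Alignment with bowtie2 (hg19), peak calling per library with MACS2 and annotation with HOMER were done by the authors; the version and settings of MACS2 are not given in the sources used here. In the deposited lists, fold is a ratio to local background, and significance is given as −log10 p and −log10 q. A display score in the deposited lists was left out, and summit offsets were used. The 2 input libraries were not analysed here.

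Regions were set against GENCODE 44 lifted to GRCh37, and no region ended past its chromosome. Overlap meant at least 1 bp. Fragments and local background at a summit were solved from fold and p (100% of p-values matched, and at least 99.97% of simulated fragments were recovered exactly). Fragment ratios pair a siCONT region with the overlapping siDLEU1 region of most fragments and have exact 95% intervals for counting error only. The genes and lists were chosen with earlier results of these data known. Of each list, the 3 largest falls and rises in H3K27ac length are named. An item these rules would name is not reported here. Likeness is given for the members with the largest and smallest H3K27ac length ratio. The high-copy words and fragment ratios were added after values had been seen. Alternatives changed the −log10 q limit, stitching, number of regions, domain, fold limit, overlap and ranking. Analyses used Python 3.11.15, SciPy 1.17.1, pandas 2.3.3 and pysam 0.24.0.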

Additional observations from a re-analysis of the deposited data

How the results depend on the processing

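No paired analysis was possible because every siRNA and mark combination has only 1 library. The H3K27ac length ratio over the 9 genes stayed below 1 under all 5 alternative lists and domains (0.60 to 0.858), and so did that of H3K4me3 (0.885 to 0.993). At −log10 q of at least 10, 5 of the 8 genes with a region were at least 1.5-fold lower in H3K27ac, beside 43.9% of all genes. These were TP63, TFAP2C, GRHL2, GRHL3 and PITX1. At this limit 100% of the siDLEU1 H3K27ac regions were overlapped. For H3K4me3, 2 of the 8 genes with a region were higher (KLF4 and KLF5, beside 15.9%). The median percentile change of H3K4me3 was -0.268, against 0.10. With regions stitched within 1 kb, 1 gene (GRHL3) was at least 1.5-fold higher in H3K27ac and 92.3% of siCONT regions were overlapped; with equal numbers of regions the latter was 87.5%. With a 2-fold limit 1 gene, PITX1, was lower in H3K27ac, beside 15.3% of all genes. Asking for 50% of both regions, 45.5% and 43.5% of H3K27ac and 56.8% and 56.8% of H3K4me3 regions were shared. Within 1 kb of start sites, 90.5% of siCONT H3K4me3 regions were overlapped and the median percentile change was -3.07. Ranked by fragments, the median percentile change of H3K27ac was 0.175, against -4.91. The cause of these shifts was not tested. Of 200 values of single genes, 22 moved by over 1.5 times or 10 percentile points. A gene without a siCONT region under an alternative has no value among the 200. A turn of direction within these limits was not counted as a move, such as TFAP2A in H3K27ac length (ratio 1.04 to 0.735).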
